A study of Mus musculus with 4 samples.

Results

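Nuclei rich in Npsr1, the gene of the neuropeptide S receptor, were selected from single-nucleus RNA sequencing (snRNA-seq) of mouse thalamic tissue. A nucleus was kept when fewer than 5% of its unique molecular identifiers (UMIs, counted transcripts) came from mitochondrial (mt-) genes and it had at least 4000 UMIs. At least 4 of the 5 neuronal genes Rbfox3, Snap25, Syt1, Myt1l and Celf4 had to be detected, Npsr1 had to reach 5 UMIs, and Nwd2, which marks another set of neurons in this tissue, had to stay under 10 UMIs. Of 32332 nuclear barcodes, 23395 passed the mitochondrial and depth limits, 17657 of these passed the neuronal gate, and 603 were Npsr1-rich neurons. The remaining 16486 neurons under both gene limits (other neurons) served as the reference. Another 560 neurons had at least 10 UMIs of Nwd2 and under 5 of Npsr1 (Nwd2-rich neurons).

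The 4 libraries came from adult C57BL6 mice aged 7 to 8 weeks, with 2 libraries in the NS group (saline) and 2 in the COL group. In the COL group, collagenase IV (Coll IV, 0.01 U/10 nl in saline), an enzyme that opens the vessel wall and causes haemorrhage, had been injected into the right ventral posteromedial and posterolateral nuclei (VPM and VPL). Injured tissue was taken 7 days later, and each library pooled 3 mice, so the library is the unit of replication and a pool hides the spread between its mice. Dissected tissue can reach beyond the injected nuclei, and fewer neurons of a type cannot be told apart from a different dissection.

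NPSR1 is a G protein-coupled receptor that binds neuropeptide S, a peptide made by a small number of brainstem neurons, and that signals through Gq to phospholipase C and calcium and through Gs to cyclic AMP. The receptor is known for its part in wakefulness and anxiety, and in rodents it is expressed in midline thalamus, hypothalamus, amygdala and cortex. Most thalamic projection neurons release glutamate, use Slc17a6 (the vesicular glutamate transporter VGLUT2) and retain the transcription factor Tcf7l2 into adulthood, while GABA neurons lie in the reticular nucleus, the zona incerta and among the local interneurons.

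The libraries held 68746459 to 77557870 UMIs. COL 1 stood apart from the other 3 libraries: Tcf7l2-high nuclei (at least 10 UMIs of Tcf7l2) formed 33.1% of its other neurons against 8.96%, 13.7% and 16.4% in NS 1, NS 2 and COL 2, and it held 265 of the 560 Nwd2-rich neurons. Nuclei with over 1% of UMIs from 22 glial marker genes numbered 80, 32, 434 and 526 among other neurons of NS 1, NS 2, COL 1 and COL 2 (more in COL), and 0 among the Npsr1-rich neurons. RNA of other cells was present below that limit in the Npsr1-rich neurons too, with summed macrophage markers at 8.87, 9.89, 18.3 and 26.6 CPM, higher in COL than in NS. Across libraries, 102 barcode sequences were shared, 2 of them belonging to Npsr1-rich neurons.

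Npsr1-rich neurons were found in every library and formed a similar share of the gated neurons in both groups at the limit of 5 UMIs. That limit was fixed while depth was not: the other neurons had medians of 9766 and 9366 UMIs in NS and 12803 and 12655 in COL. After thinning to 4000 UMIs with a limit of 2 UMIs the difference between the groups changed sign, as given with the processing alternatives. In NS 1, 187 of 5454 gated neurons qualified, or 3.43% (95% Clopper-Pearson interval 2.96 to 3.95). In NS 2 the share was 3.15% (144 of 4574, 2.66 to 3.70). It was 3.12% in COL 1 (119 of 3813, 2.59 to 3.72) and 4.01% in COL 2 (153 of 3816, 3.41 to 4.68). The NS mean was 3.29% ± 0.198 and the COL mean 3.57% ± 0.628 (SD, n = 2 libraries each). The COL libraries held both the lowest and the highest share, and the exact two-sided permutation test of the difference of 0.277 percentage points gave p = 1, where 2 libraries against 2 cannot go below 0.333.

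Npsr1 itself defined the nuclei and is given as a description. Its level, in UMIs of the summed nuclei scaled to a total of 1000000 (CPM), was 949 in NS 1, 943 in NS 2, 1159 in COL 1 and 766 in COL 2 in the Npsr1-rich neurons, or 954 ± 161 CPM (SD, n = 4). It was 12.9, 12.7, 9.26 and 9.93 CPM in the other neurons of the same libraries. The oligodendrocytes, which should lack the receptor and show the level of free RNA, had 6.09, 4.63, 8.93 and 9.69 CPM. The other neurons lay above that background in the NS libraries and next to it in the COL libraries. The rule had cut the other neurons at 4 UMIs of Npsr1, while the oligodendrocytes reached 6. These levels therefore do not show whether the other neurons express Npsr1 or whether the groups differ in it. At least 1 UMI of Npsr1 was present in 12.1% of gated neurons and in 4.28% of oligodendrocytes, whose median depth was 5498.5 UMIs against 10549 in the other neurons and 13542 in the Npsr1-rich neurons. At least 5 UMIs were present in 611 of 17657 gated neurons and in 1 of 4062 oligodendrocytes.

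**Figure D1:**
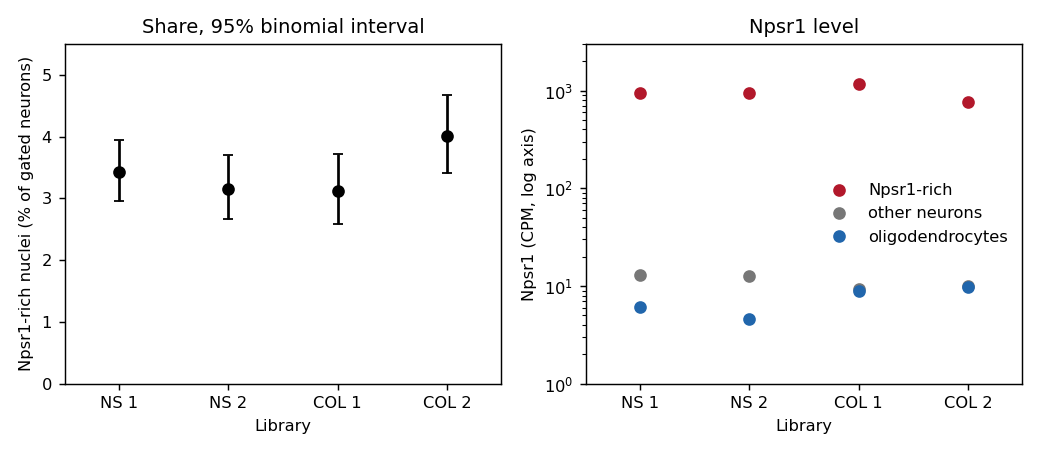
Left, share of gated neurons that were Npsr1-rich (%) in each library, with 95% Clopper-Pearson intervals. Right, Npsr1 level (CPM, log axis) in the summed Npsr1-rich neurons, other neurons and oligodendrocytes of each library, with 766 to 1159 CPM in the Npsr1-rich neurons and under 13 CPM in the rest.

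Within the 603 nuclei, Npsr1 ranged from 5 to 158 UMIs, with medians of 9, 8, 14 and 10 UMIs in NS 1, NS 2, COL 1 and COL 2. These counts are not scaled to depth, whose medians were 12165, 10601, 18127 and 16300 UMIs in the same order. At least 20 UMIs were counted in 127 nuclei and at least 40 in 39, of which COL 1 held 22. Nwd2 was at 0 UMIs in 378 of the 603. Just inside the limit, 100 neurons had 5 UMIs of Npsr1, and just outside it 109 had 4 UMIs. By the classes defined next, 13 nuclei just inside were Tcf7l2-high, 22 other glutamate, 44 GABA and 21 neither, and just outside 10, 39, 46 and 14. On the Nwd2 side, 13 nuclei had 7 to 9 UMIs, and 8 neurons with at least 5 UMIs of Npsr1 were left out for Nwd2, 2 in COL 1 and 6 in COL 2.

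The Npsr1-rich neurons were a mixture of transmitter classes. The classes were set after the values had been seen, and they are described without a test. By the sums of the glutamate genes (Slc17a6, Slc17a7, Slc17a8) and of the GABA genes (Gad1, Gad2, Slc32a1), 292 nuclei were glutamate, 221 GABA and 90 tied, with 51 having no UMI of any of the 6 genes. When nuclei with at least 10 UMIs of Tcf7l2 were taken first, 146 were Tcf7l2-high, 176 other glutamate, 207 GABA and 74 neither. The Tcf7l2-high class was set without the transmitter genes and is not a pure glutamate class. Taking it first lowered the GABA nuclei from 221 to 207 and the ties from 90 to 74. Pooled over the libraries, Tcf7l2-high nuclei made up 24.2% of the Npsr1-rich neurons and 16.8% of the other neurons. In NS 2 the order was reversed, with 14 of 144 Npsr1-rich and 592 of 4319 other neurons. Other glutamate nuclei made up 29.2% and 23.7%, GABA nuclei 34.3% and 41.5%, and the remainder 12.3% and 18%.

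The makeup differed between libraries of the same group. Tcf7l2-high nuclei were 42 of 187 in NS 1 (22.5%), 14 of 144 in NS 2 (9.72%), 56 of 119 in COL 1 (47.1%) and 34 of 153 in COL 2 (22.2%). NS 1 and COL 2 did not differ beyond their intervals (16.7 to 29.1 and 15.9 to 29.6), NS 2 was the lowest and COL 1 the highest. The COL mean exceeded the NS mean by 18.5 percentage points (exact two-sided permutation p = 0.667). GABA nuclei were 41.2%, 30.6%, 21.8% and 39.2% in the same order, lowest in COL 1. Since the other neurons of COL 1 were also rich in Tcf7l2-high nuclei, the share of each class that was Npsr1-rich is the more comparable measure: 8%, 2.26%, 4.30% and 5.33% of Tcf7l2-high nuclei and 2.72%, 2.48%, 2.52% and 3.96% of GABA nuclei. By that measure COL 1 lay between the NS libraries in both classes.

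**Figure D2:**
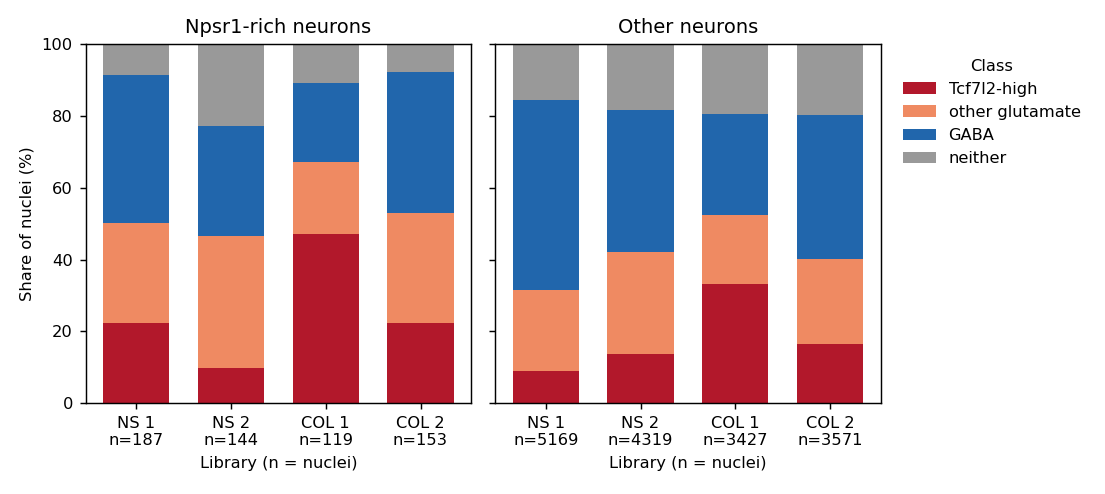
Share of nuclei (%) in the 4 classes for each library, Npsr1-rich neurons on the left and other neurons on the right, with the number of nuclei under each bar. COL 1 had the highest Tcf7l2-high share on both sides (47.1% and 33.1%).

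Pooled over the libraries, the nuclei with the most Npsr1 were mostly Tcf7l2-high, but not in every library. At 20 UMIs or more, 21 of 37 nuclei were Tcf7l2-high in NS 1, 6 of 18 in NS 2, 30 of 45 in COL 1 and 12 of 27 in COL 2. At 40 or more, they were 4 of 8, 2 of 3, 18 of 22 and 5 of 6 in the same order. The shares that follow are pooled. Tcf7l2-high nuclei were 12.8% of the 296 neurons with 5 to 9 UMIs of Npsr1, 54.3% of those with at least 20 and 74.4% of those with at least 40. GABA nuclei were 39.5%, 17.3% and 7.69% of the same ranges. Depth moved with this: the median was 21262 UMIs per nucleus in Tcf7l2-high Npsr1-rich neurons against 13252 in other glutamate and 11906 in GABA nuclei, and a class set by 10 UMIs favours deep nuclei. Scaled to depth, Npsr1 was 974, 861, 1347 and 845 CPM in the Tcf7l2-high class of NS 1, NS 2, COL 1 and COL 2, 1076, 1071, 1132 and 622 in the other glutamate class, and 868, 918, 671 and 784 in the GABA class. On that scale the Tcf7l2-high and other glutamate classes overlapped across libraries. The GABA class was below the Tcf7l2-high class in NS 1, COL 1 and COL 2 and above it in NS 2. The limit of 5 UMIs that chose the nuclei is a higher CPM in a shallow nucleus than in a deep one. These levels therefore do not show whether the classes differ in Npsr1.

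**Figure D3:**
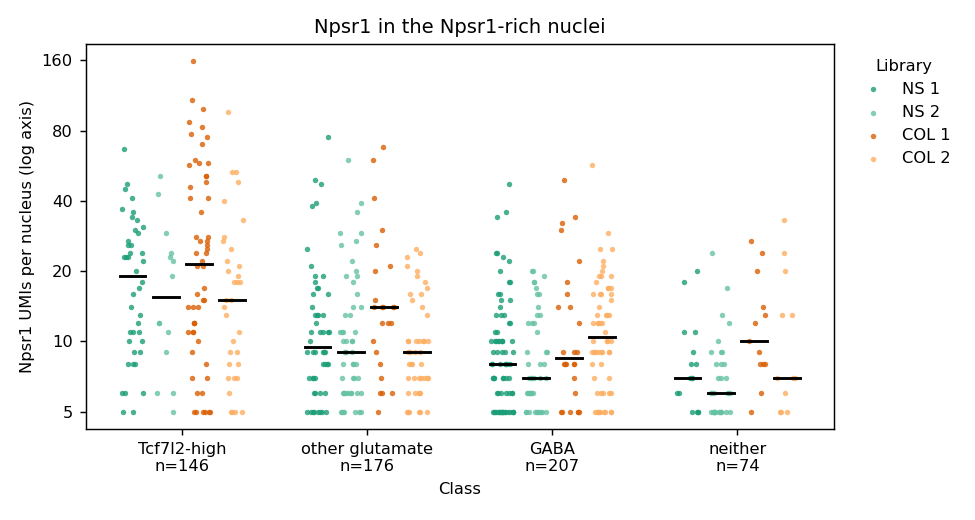
Npsr1 UMIs per nucleus (log axis) in the 603 Npsr1-rich neurons by class and library. Each point is a nucleus and each bar the median of a library, with library medians of 15 to 21.5 UMIs in the Tcf7l2-high class and 7 to 10.5 in the GABA class.

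Transmitter genes in the summed nuclei showed the same mixture. Slc17a6 was at 136, 112, 105 and 104 CPM in the Npsr1-rich neurons of NS 1, NS 2, COL 1 and COL 2, against 99.7, 97.2, 101 and 88.2 CPM in the other neurons. Gad2, a GABA-synthesizing enzyme, was at 88.7, 59.4, 68.1 and 102 against 128, 84.0, 82.7 and 108 CPM. Slc17a6 was higher and Gad2 lower in the Npsr1-rich neurons of every library, but neither passed the test against the other neurons (edgeR quasi-likelihood test with library as a block, adjusted p = 0.066 and 0.071). Slc32a1, the vesicular GABA transporter, was at 21.6 ± 9.20 and 23.4 ± 12 CPM (SD, n = 4).

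Against the other neurons, 20991 genes were tested in the sums of each library, with library as a block and without the genes of the rule. In all, 219 genes (1.04%) were higher and 380 (1.81%) lower in the Npsr1-rich neurons at an adjusted p under 0.05 (edgeR). Of the 20 transmitter genes, 17 were tested, 0 were higher and 2 were lower: Slc17a7, the vesicular glutamate transporter of cortex (1.48, 6.40, 7.89 and 4.38 against 6.82, 16.1, 19.7 and 9.97 CPM), and Hdc, the histamine-synthesizing enzyme, whose call was lost without NS 1 (-2.11). The counts depended on the COL libraries: without COL 1 they were 79 and 102, and without COL 2 132 and 140.

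Here and below, rises and falls are ranked among called genes with at least 20 CPM that moved the same way in every library, without Gm and Rik models. The gene with the largest rise was Col27a1, which encodes the alpha-1 chain of type XXVII collagen, a fibrillar collagen (chr4:63214004-63334991, + strand, GRCm38). Its level was 76.2, 40.2, 161 and 94.9 CPM in the Npsr1-rich neurons of NS 1, NS 2, COL 1 and COL 2 and 7.44, 7.33, 17.9 and 12.3 CPM in the other neurons. Every Npsr1-rich sum lay above every sum of the other neurons, and the log2 difference was 3.07 ± 0.12 (SE, adjusted p = 8.3e-11 in edgeR). At least 3 UMIs of Col27a1 were present in 59 of 146 Tcf7l2-high Npsr1-rich nuclei (40.4%) and in 63 of 2777 other Tcf7l2-high nuclei (2.27%). Seen from the other side, 59 of the 122 Tcf7l2-high nuclei with at least 3 UMIs of Col27a1 were Npsr1-rich, at 52.0%, 46.2%, 46.0% and 52.4% in NS 1, NS 2, COL 1 and COL 2. After every nucleus had been thinned to 4000 UMIs, at least 1 UMI of Col27a1 was left in 25.3% of Tcf7l2-high Npsr1-rich nuclei and 4.32% of the other Tcf7l2-high nuclei. The thinned shares were 11.9% and 3.76% in the other glutamate class and 4.35% and 2.40% in the GABA class.

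The promoter of Col27a1, the gene with the largest rise, is shown as 250 bases before to 50 after the RefSeq start (GRCm38.p6, chr4:63215162-63215461, + strand), with CG dinucleotides in capitals. The RefSeq start lies inside the gene span given above, which comes from a different annotation with an earlier start. It held 18 CG dinucleotides and 61.7% G and C, against medians of 7 and 52.7% over 32851 RefSeq promoters of this length.
Col27a1: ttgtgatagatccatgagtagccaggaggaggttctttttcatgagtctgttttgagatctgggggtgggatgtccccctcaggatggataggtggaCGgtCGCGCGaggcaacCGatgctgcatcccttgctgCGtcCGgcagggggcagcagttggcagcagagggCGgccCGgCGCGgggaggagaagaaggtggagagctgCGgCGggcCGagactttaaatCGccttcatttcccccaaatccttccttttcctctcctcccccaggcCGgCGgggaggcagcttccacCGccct

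Next to Col27a1, 3 genes of low level rose by more than 2 on the log2 scale. Itga4, the integrin alpha-4 chain of a receptor for fibronectin and VCAM-1, was at 49.2, 43.1, 56.9 and 18.6 against 6.75, 5.91, 9.59 and 10.3 CPM (log2 difference 2.37 ± 0.23, adjusted p = 1.5e-05 in edgeR). Trpm6, a magnesium-permeable channel with a kinase domain, was at 67.3, 66.3, 79.7 and 21.2 against 11.5, 12.2, 18.7 and 7.56 CPM (2.22 ± 0.13). Myo5c, a class V myosin motor, was at 30.3, 19.2, 53.1 and 21.5 against 4.97, 9.25, 9.20 and 5.30 CPM (2.17 ± 0.20). All 3 were higher in each library, and COL 2 was the lowest Npsr1-rich sum for Itga4 and Trpm6.

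Among the further genes with the largest rise, Rgs6, a GTPase-accelerating protein of inhibitory G proteins, was at 844, 964, 1437 and 886 against 320, 494, 467 and 504 CPM (log2 difference 1.23 ± 0.10, adjusted p = 3.8e-06 in edgeR). Chrm3, a muscarinic acetylcholine receptor that couples to Gq as NPSR1 does, was at 812, 850, 1086 and 916 against 419, 521, 494 and 493 CPM (0.96 ± 0.07). For both, the lowest Npsr1-rich sum exceeded the highest sum of the other neurons. The remaining genes of this group rose by 0.99 to 1.52: Dpy19l1 and Bmper (described with their position below), the kelch-like adaptor Klhl14 (1.5 ± 0.26, lost without COL 1 at 0.92), the fibrillar collagen gene Col24a1 (1.16 ± 0.21), the zinc finger factor Glis1 (1.09 ± 0.10), Prox1os, which is antisense to Prox1 (1.08 ± 0.12), the LIM homeobox factor Lhx2 (1.05 ± 0.14), the actin-binding Nexn (1.04 ± 0.15) and Gsg1l, an auxiliary subunit of AMPA receptors (0.99 ± 0.09).

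Genes on either side of Npsr1 on chromosome 9 were also higher, a pattern noticed in the values of Dpy19l1 and then read for the whole neighbourhood. Npsr1 lies at chr9:24097996-24316398 on the + strand (GRCm38). The annotation lists 31 genes within 1000000 bp on either side, Npsr1 included, and 9 of the 31 are protein-coding. Apart from Npsr1, 9 genes of the window were tested, 4 were higher and 1 was lower in the Npsr1-rich neurons, where 1.04% of all genes tested were higher and 1.81% lower. The window was chosen after its values were seen, so the count is a description.

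Dpy19l1, of a family of C-mannosyltransferases, lies 95378 bp beyond the end of Npsr1 on the - strand (chr9:24411776-24503140). It was at 123, 108, 128 and 134 CPM in the Npsr1-rich neurons against 37.6, 37.8, 44.2 and 57.7 CPM in the other neurons, without overlap (log2 difference 1.52 ± 0.08, adjusted p = 1.5e-08 in edgeR). Bmper, a secreted regulator of bone morphogenetic proteins, ends 612796 bp before Npsr1 on the + strand (chr9:23223076-23485200). It was at 76.5, 79.7, 78.0 and 74.8 against 46.1, 38.4, 31.1 and 43.8 CPM (1.00 ± 0.09, adjusted p = 1.3e-05), again without overlap and with little spread between the Npsr1-rich sums. Dpy19l2, a relative of Dpy19l1 known from sperm-head formation, lies 240649 bp beyond Npsr1 on the - strand and was low: 9.24, 4.66, 2.49 and 8.03 against 3.77, 2.26, 1.86 and 2.91 CPM (1.21 ± 0.25, adjusted p = 0.012 in edgeR). Its call was lost without NS 1 (1.13) or COL 2 (1.05).

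The remaining called neighbours were Gm10701 and Sept7. Gm10701, a non-coding gene on the + strand that starts 25259 bp after Npsr1 and overlaps Dpy19l1 in antisense, rose by 0.96 on the log2 scale (adjusted p = 0.0054 in edgeR). The strand setting of the counting is not given in the sources used here. Whether the reads of Gm10701 and Dpy19l1 were kept apart where the genes overlap is therefore not known here. Sept7, a septin of the cytoskeleton 936041 bp away, was lower by a log2 difference of -0.37 ± 0.09 (adjusted p = 0.044, lost without COL 1 or COL 2 at -0.29 and -0.28), and Herpud2, 791734 bp away, did not pass the test (-0.06 ± 0.10, adjusted p = 0.90). Within classes, Dpy19l1 was higher in all 3 that were tested, with log2 differences of 2.26 in Tcf7l2-high, 1.44 in other glutamate and 1.15 in GABA nuclei. Bmper was higher in the Tcf7l2-high (2.05) and other glutamate (1.51) classes. In the GABA class it was at 77.0, 57.4, 117 and 76.6 against 64.1, 64.3, 78.1 and 70.0 CPM and did not pass the test (0.23 ± 0.12, adjusted p = 0.68). The difference between the classes was not tested.

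**Figure D4:**
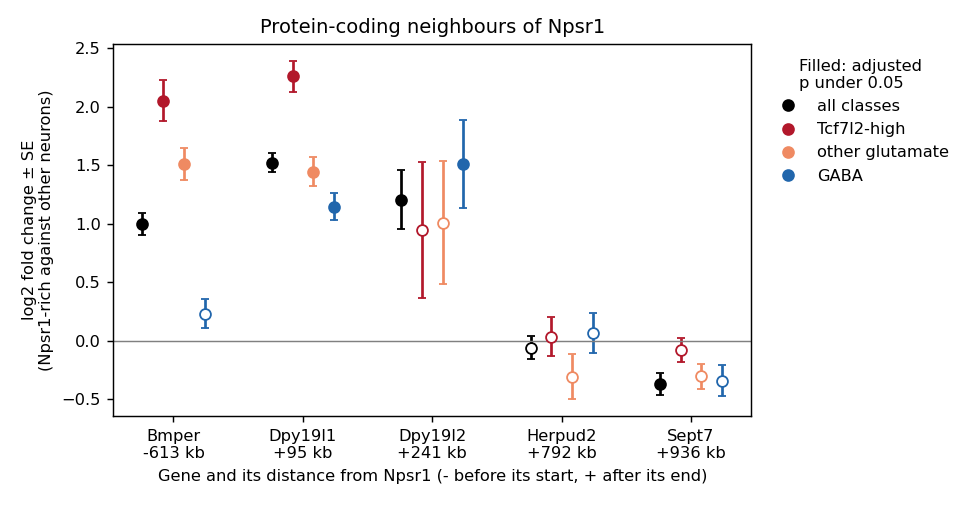
Log2 difference (Npsr1-rich minus other neurons, with SE) for the 5 protein-coding neighbours of Npsr1 that were tested, over all classes and within each class. Filled points passed an adjusted p of 0.05, and the axis gives the distance from Npsr1 in kb, with Dpy19l1 higher in each of the 4 comparisons.

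The promoters of Npsr1 and of the neighbours with the clearest rise are shown for comparison, each as 300 bases around the RefSeq start (GRCm38.p6, 5′ to 3′ along the gene's strand), with CG dinucleotides in capitals. Npsr1 spans chr9:24097768-24098067 on the + strand, Dpy19l1 chr9:24503091-24503390 on the - strand and Bmper chr9:23222826-23223125 on the + strand.
Npsr1: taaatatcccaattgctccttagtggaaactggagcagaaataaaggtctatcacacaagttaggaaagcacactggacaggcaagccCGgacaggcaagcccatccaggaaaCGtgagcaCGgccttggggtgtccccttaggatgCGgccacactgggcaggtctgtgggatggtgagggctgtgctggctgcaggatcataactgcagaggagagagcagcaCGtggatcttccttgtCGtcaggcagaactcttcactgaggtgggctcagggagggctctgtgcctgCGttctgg
Dpy19l1: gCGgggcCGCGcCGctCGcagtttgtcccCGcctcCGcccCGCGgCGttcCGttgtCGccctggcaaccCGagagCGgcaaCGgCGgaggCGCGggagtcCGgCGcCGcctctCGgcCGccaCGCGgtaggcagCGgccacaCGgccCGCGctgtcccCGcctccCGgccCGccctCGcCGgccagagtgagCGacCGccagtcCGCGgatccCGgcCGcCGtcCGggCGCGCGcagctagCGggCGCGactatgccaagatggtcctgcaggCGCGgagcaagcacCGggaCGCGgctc
Bmper: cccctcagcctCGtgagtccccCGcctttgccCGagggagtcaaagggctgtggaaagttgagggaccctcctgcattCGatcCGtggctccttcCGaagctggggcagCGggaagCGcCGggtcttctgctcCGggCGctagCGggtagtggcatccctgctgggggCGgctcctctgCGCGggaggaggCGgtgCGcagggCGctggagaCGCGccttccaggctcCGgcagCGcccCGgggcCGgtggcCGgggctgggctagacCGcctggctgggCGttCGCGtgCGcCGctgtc
The Npsr1 window held 7 CG dinucleotides, the median of the 32851 promoters. Dpy19l1 held 53, as many as or more than 99.7% of them, and Bmper 31, as many as or more than 90.5%. The share of G and C was 56.0%, 78.7% and 72.7%. The promoters of the 3 genes differed widely in CG content.

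The difference between Npsr1-rich and other neurons was then read within each class, with the same class limits on both sides and the class genes left out of the test. In the Tcf7l2-high class, 226 of 15286 genes (1.48%) were higher and 336 (2.20%) lower at an adjusted p under 0.05 (edgeR). Col27a1 was at 127, 111, 213 and 161 CPM against 9.03, 6.46, 15.3 and 12 CPM (log2 difference 3.82 ± 0.12, adjusted p = 2.1e-20). Itga4 (2.65 ± 0.19), Rgs6 (1.98 ± 0.11), Trpm6 (1.74 ± 0.13) and Myo5c (1.72 ± 0.19) rose again. Nrp2, a receptor of class 3 semaphorins in axon guidance, was at 108, 123, 123 and 95.6 against 25.6, 21.1, 28.8 and 38.0 CPM (1.95 ± 0.14), with no overlap between the populations. Gsg1l (1.76 ± 0.14), the hyaluronan-binding Cemip (1.65 ± 0.16) and the potassium channel Kcnh8 (1.46 ± 0.14) were also among the 15 largest rises.

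Prkcd, a protein kinase C isoform known from sensory relay nuclei of the thalamus, was lower in this class. It was at 76.3, 22.2, 76.4 and 56.9 CPM in the Tcf7l2-high Npsr1-rich neurons and 155, 207, 214 and 172 CPM in the other Tcf7l2-high neurons (log2 difference -1.54 ± 0.15, adjusted p = 1.3e-08 in edgeR). The sums did not overlap. Necab1, a neuronal calcium-binding protein (-0.78 ± 0.10), and Lef1, a factor of the Wnt pathway (-0.42 ± 0.09), were lower too, while Prox1, a homeobox factor, was higher (0.88 ± 0.09). Of the 27 genes of the thalamic glutamatergic list, 22 were tested in this class, 3 were higher and 7 lower, with a median log2 difference of -0.22 against -0.01 over all genes, and DESeq2 called 2 and 4. Foxp2 was among the lower genes (-0.34 ± 0.09), a call lost without NS 1 (-0.36), NS 2 (-0.29) or COL 1 (-0.32). Calls were also lost for Lhx2 (without NS 2, COL 1 or COL 2, at 0.59, 0.56 and 0.68), Synpo2 (without the same libraries, at -0.24, -0.41 and -0.35) and Tnnt1 (without NS 1 or COL 2, at -1.45 and -1.37). The largest fall was that of Shroom3, an actin regulator of cell shape, from 31.6, 21.4, 50.2 and 43.4 CPM to 1.11, 9.5, 2.20 and 4.84 CPM (-3.63 ± 0.32). Tll1, an astacin-like metalloprotease (-2.15 ± 0.29), Adamts19 (-2.10 ± 0.20), Vipr2, a receptor for VIP and PACAP (-2.04 ± 0.25), and Kcnip3, a potassium channel-interacting calcium sensor (-1.53 ± 0.13), fell as well.

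In the other glutamate class, 124 of 15464 genes (0.802%) were higher and 109 (0.705%) lower. Col27a1 was at 76.0, 48.6, 153 and 109 against 10.1, 11.1, 17.8 and 11.5 CPM (log2 difference 2.94 ± 0.18, adjusted p = 2.4e-11 in edgeR). Trpm6 (2.78 ± 0.24), Myo5c (2.59 ± 0.29) and Itga4 (2.52 ± 0.29) followed. COL 2 was again the lowest for Trpm6, at 8.77 CPM against 86.2, 95.6 and 86.7 CPM in NS 1, NS 2 and COL 1, and its sum of the other neurons was 5.22 CPM. Col25a1, a transmembrane collagen of neurons, rose by 1.13 ± 0.12 and Chrm3 by 1.11 ± 0.11. Prox1 (1.06 ± 0.12) and Lef1 (0.58 ± 0.14) were higher. Lef1 was thus called in opposite directions here and in the Tcf7l2-high class, although this rise was lost without COL 1 (0.47) or COL 2 (0.41). Of the 27 genes of the thalamic glutamatergic list, 22 were tested in this class, 6 were higher and 2 lower, with a median of 0.22, and DESeq2 called 3 and 1. Besides Lef1, calls of this list were lost for Lhx2 (without COL 1, NS 1 or NS 2, at 1.10, 0.82 and 1.06), Ntng1 (without COL 1 or NS 1, at 0.31 and 0.30), Shox2 (without COL 2, NS 1 or NS 2, at 0.93, 0.78 and 0.98) and Nr4a2 (without COL 2, NS 1 or NS 2, at -2.90, -2.56 and -2.22). Prkcd (-2.20 ± 0.23), Shroom3 (-1.72 ± 0.33) and the homeobox gene Meis1 (-1.60 ± 0.24) were lower.

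Of the 226 genes higher in the Tcf7l2-high class and the 124 higher in the other glutamate class, 63 were shared, which is 27.9% of the first list and 50.8% of the second. Of the lower genes 39 were shared (11.6% and 35.8%). The 2 classes come from the same libraries, so these shares are a description.

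In the GABA class, 57 of 17019 genes (0.335%) were higher and 145 (0.852%) lower. Lypd6, a LY6-family modulator of nicotinic receptors, was at 65.3, 104, 61.2 and 97.3 against 38.2, 28.8, 22.6 and 30.8 CPM (log2 difference 1.41 ± 0.15, adjusted p = 5.5e-06 in edgeR), without overlap. Hs3st3b1, a heparan sulfate sulfotransferase (1.57 ± 0.24), L3mbtl4 (1.40 ± 0.16), the factor Ebf2 (1.33 ± 0.20), Reln, which encodes the secreted glycoprotein reelin (1.03 ± 0.16), Lef1 (1.00 ± 0.15) and Foxp2 (0.78 ± 0.11) were higher. The call of Ebf2 was lost without COL 2 (0.79). Foxp2 was at 319, 432, 294 and 238 against 202, 177, 187 and 160 CPM, again without overlap. Col27a1 was at 34.2, 2.21, 26.8 and 16.6 against 4.95, 4.02, 12.5 and 8.60 CPM (1.53 ± 0.33, adjusted p = 0.014). It was lower in the Npsr1-rich sum of NS 2 and higher in the other 3, and the call was lost without NS 1 (0.85). Itga4 (0.91 ± 0.39), Trpm6 (1.25 ± 0.42) and Myo5c (1.21 ± 0.52) did not pass the test in this class. Glial RNA moved with the lower genes: the 5 oligodendrocyte markers Mbp, Mobp, Mog, Mag and St18 were all lower in the GABA class (median log2 difference -0.94), 3 of them in the other glutamate class (-0.63) and 0 in the Tcf7l2-high class (0.03), where 0 also had an unadjusted p under 0.05. DESeq2 called 4, 0 and 0 of them.

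Of 10 tested genes of thalamic and midbrain interneurons, 2, Otx2os1 and Otx2, were higher and 0 lower in the GABA class, with a list median of -0.08 against -0.04 over all genes, and DESeq2 called 1. Otx2os1, a non-coding gene beside the homeobox factor Otx2, was at 12.8, 794, 319 and 181 CPM in the GABA Npsr1-rich neurons of NS 1, NS 2, COL 1 and COL 2, against 24.1, 128, 87.9 and 122 CPM (log2 difference 1.42 ± 0.24, adjusted p = 0.0019 in edgeR). It was lower in NS 1 and higher in the other 3 libraries. At least 3 UMIs of it were present in 1.30%, 34.1%, 23.1% and 20.0% of the GABA Npsr1-rich nuclei. Otx2, which is needed for midbrain identity, was at 2.14, 50.7, 28.7 and 22.8 against 2.49, 11.1, 8.19 and 11.5 CPM (1.47 ± 0.29). Without NS 2 the difference of Otx2os1 was 0.92 and the call of Otx2 was lost (1.16). Tac1, the precursor of substance P, was at 83.5, 26.5, 0 and 22.8 against 30.0, 13.8, 4.64 and 8.35 CPM (1.23 ± 0.24), and NS 1, the lowest library for Otx2os1, was the highest for Tac1, whose call was lost without NS 1 (0.93) or COL 2 (1.14). Of 16 tested genes of reticular, prethalamic and zona incerta neurons, 0 were higher and 4 were lower in this class, of which DESeq2 called 1, and 0.335% of all genes tested were higher and 0.852% lower. The nuclear receptor gene Esrrg was lower in each library (-0.59 ± 0.11), and the calls of Six3, Spp1 and Pax6 were lost without COL 2 (-0.94, -1.29 and -2.05), those of Six3 and Spp1 also without COL 1 (-1.34 and -1.12) and that of Pax6 without NS 1 (-1.55).

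**Figure D5:**
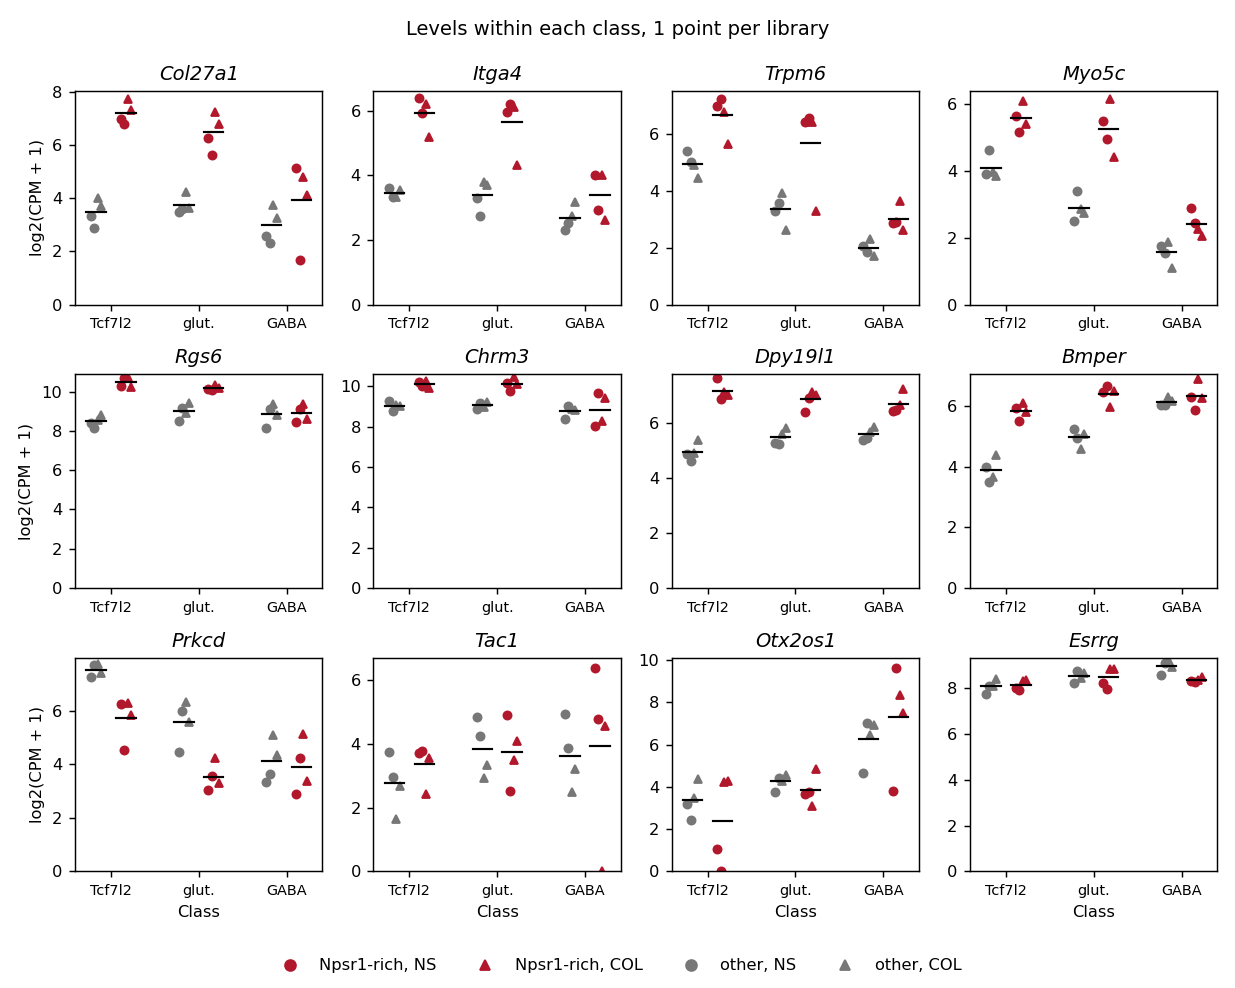
Levels of 12 genes (log2 of CPM + 1) in the Tcf7l2-high, other glutamate and GABA classes. Each point is a library (circles NS, triangles COL), red for Npsr1-rich and grey for other neurons, and bars are means over the 4 libraries. Col27a1 and Dpy19l1 were called higher in each class (Col27a1 not in the GABA nuclei of NS 2, where it was lower). Prkcd was lower in the Tcf7l2-high and other glutamate classes, and Otx2os1 was spread widely in the GABA class.

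Across the 3 classes, 2 genes were called higher in each, Col27a1 and Dpy19l1, and 6 were called lower in each (Bcas1, Csgalnact1, Fign, Lrmda, Mob3b and Rreb1). In the GABA class the call of Col27a1 was lost without NS 1 (0.85) and that of Mob3b without COL 2 (-1.26). The class fits were not repeated with a limit on glial UMIs. The 74 nuclei of the neither class, 12 to 33 a library, were not fitted. Their Npsr1 level was 760, 800, 1242 and 976 CPM.

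Genes of the receptor's signalling pathway were expressed in the Npsr1-rich neurons. Of 38 genes of the NPSR1 signalling list (G protein subunits, phospholipases, adenylyl cyclases, kinases and phosphodiesterases), all 38 were tested over all classes, 0 were higher and 1, Prkcd, was lower, with a median log2 difference of -0.01 against -0.03 over all genes. This is near the 1.04% and 1.81% of all genes, and 3 were higher and 5 lower at an unadjusted p under 0.05, while DESeq2 called 0 and 1. Gnaq, the alpha subunit of Gq, was at 325 ± 30.0 CPM in the Npsr1-rich and 338 ± 36.7 CPM in the other neurons (SD, n = 4). Gnas, the alpha subunit of Gs, was at 399 ± 96.9 and 429 ± 104 CPM, and Plcb1, a phospholipase C that Gq activates, at 530 ± 64.9 and 610 ± 77.2 CPM. Within the Tcf7l2-high class, where 1.48% of all genes were higher and 2.20% lower, 0 of 35 were higher and 5 were lower in both edgeR and DESeq2 (3 and 9 at an unadjusted p under 0.05), among them Plcb4 (-0.50 ± 0.09) and the calcium-activated adenylyl cyclase Adcy8 (-0.54 ± 0.10).

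Nps, which encodes the ligand, was at 0.370, 0, 0 and 0.365 CPM in the Npsr1-rich neurons and did not reach the filter for testing. Of 31 neuropeptide genes, 24 were tested, 1 was higher and 2 were lower, with a median log2 difference of -0.11, beside 1.04% and 1.81% of all genes. DESeq2 called 0 in either direction. Tac1 was higher (41.4, 14.0, 4.57 and 19.3 against 26.6, 14.2, 3.76 and 8.09 CPM, 0.67 ± 0.17, adjusted p = 0.044 in edgeR), but not in NS 2, and the call was lost without NS 1 (0.65), COL 1 (0.72) or COL 2 (0.43). Hcrt (hypocretin, -0.74 ± 0.18) and Pmch (melanin-concentrating hormone, -0.65 ± 0.14) were lower, and both calls were lost without NS 1 (-0.69 and -0.60) or COL 2 (-0.71 and -0.62), and that of Hcrt without COL 1 (-0.70). Both peptides are made in abundance by lateral hypothalamic neurons.

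Receptors for peptides and amines were compared as a list of 79 genes, of which 69 were tested, 3 were higher and 2 were lower (median log2 difference -0.01), beside 1.04% and 1.81% of all genes tested. The higher ones were the muscarinic receptors Chrm3 and Chrm2, the latter at 216, 254, 321 and 316 against 161, 206, 224 and 217 CPM (0.48 ± 0.07, adjusted p = 0.00060 in edgeR), and Htr1b, an inhibitory serotonin receptor, at 11.1, 8.73, 9.55 and 10.9 against 6.88, 5.26, 4.11 and 5.26 CPM (0.96 ± 0.18). The lower ones were Htr1f, another inhibitory serotonin receptor (-0.62 ± 0.11), and Vipr2 (-1.57 ± 0.20). Without COL 1 the calls of Htr1b (0.87) and Htr1f (-0.49) were lost, and that of Htr1b also without COL 2 (0.89). Chrm3 and Chrm2 were higher in the Tcf7l2-high and other glutamate classes. In the GABA class, where 0.335% of all genes were higher, edgeR and DESeq2 called 0 of 58 tested receptors higher and 7 had an unadjusted p under 0.05 upward. The difference between the classes was not tested. In the Tcf7l2-high class 4 of 43 tested receptors were higher (Htr1b, Chrm2, Chrm3 and Npffr1) and 7 lower (Hcrtr2, Hrh2, Htr1f, Oprm1, Tacr1, Adora1 and Vipr2), beside 1.48% and 2.20% of all genes, and DESeq2 called 3 and 4. Without COL 1 the calls of Npffr1 (1.18), Htr1f (-0.60), Oprm1 (-0.35) and Adora1 (-0.72) were lost, that of Adora1 also without NS 1 (-0.59) or NS 2 (-0.58), and that of Tacr1 without NS 1 (-0.95) or COL 2 (-1.10). The orexin receptor Hcrtr2 was lower, at 8.84, 0, 3.67 and 8.47 against 15.5, 10.4, 17.7 and 17.9 CPM (-1.49 ± 0.32), a call lost without COL 1 (-1.13). Chrm2 in the other glutamate class was lost without COL 2 (0.36).

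Potassium channels were among the higher genes. Of 42 excitability channels, 42 were tested, 6 were higher and 0 lower, with a median log2 difference of 0.07, where 1.04% of all genes tested were higher and 1.81% lower with a median of -0.03. At an unadjusted p under 0.05, 3 channels were lower, and DESeq2 called 5 higher and 0 lower. These were the calcium-activated potassium channels Kcnma1 (BK, 0.45 ± 0.07) and Kcnn2 (SK, 0.37 ± 0.07), the background potassium channel Kcnk10 (0.54 ± 0.08), Kcnq5 of the M-current (0.36 ± 0.07), Kcnc2 of fast-spiking repolarization (0.37 ± 0.09) and the L-type calcium channel Cacna1c (0.34 ± 0.08). Kcnma1 was at 1794, 1576, 2390 and 1500 against 1163, 1290, 1740 and 1222 CPM, higher in each library. Kcnma1 and Kcnk10 passed whichever library was left out. Without COL 1 the other 4 lost their call (Kcnn2 0.33, Kcnq5 0.39, Kcnc2 0.35, Cacna1c 0.33). The calls of Kcnq5 (0.27), Kcnc2 (0.36) and Cacna1c (0.33) were lost without COL 2 too, and those of Kcnc2 (0.25) and Cacna1c (0.25) without NS 1. Of the 33 ionotropic receptor genes, 3 were higher, the GABA-A subunits Gabra4 (0.70 ± 0.09) and Gabrb1 (0.39 ± 0.07) and the kainate subunit Grik3 (0.28 ± 0.07), and 2 were lower, the NMDA subunit Grin2a (-0.31 ± 0.08) and the kainate subunit Grik1 (-0.28 ± 0.06). Without COL 1 only Gabra4 of these 5 passed, with Gabrb1 at 0.37, Grik3 at 0.34, Grin2a at -0.22 and Grik1 at -0.29, and the call of Grik3 was lost whichever library was left out. The calls of Grin2a (-0.29) and Grik1 (-0.28) were lost without COL 2 as well, and that of Grin2a without NS 2 (-0.32). Within the Tcf7l2-high class 3 ionotropic receptor genes were higher (Grik3, Gabra4 and Gabrb1) and 7 lower (Grin2a, Grin2b, Grik1, Grik2, Gabra2, Gabra3 and Gabrg3), beside 1.48% and 2.20% of all genes of the class (DESeq2 3 and 5, and 3 and 11 at an unadjusted p under 0.05). Without COL 1 the calls of Grik2 (-0.32), Gabra2 (-0.40) and Gabra3 (-0.39) were lost, and without NS 1 that of Gabra2 (-0.25). In this class 5 excitability channels were higher and 1, Scn9a, lower (DESeq2 4 and 0, and 7 and 8 at an unadjusted p under 0.05). The call of Scn9a was lost without COL 1 (-0.35) or NS 1 (-0.41) and that of Kcnma1 without COL 1 (0.30). In the other glutamate class the counts were 2 and 0 for the receptors and 3 and 0 for the channels, beside 0.802% and 0.705% of all genes of the class. DESeq2 called the same numbers. At an unadjusted p under 0.05 the counts were 8 and 2 for the receptors and 10 and 3 for the channels. Of the receptors, Gabrb1 lost its call without COL 1 (0.33), NS 1 (0.335) or NS 2 (0.315). In the GABA class edgeR called 0 of either list, where 4 receptors and 4 channels were higher and 2 and 3 lower at an unadjusted p under 0.05, and DESeq2 called 1 receptor higher and 0 channels.

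Regional genes were read as lists. Of the 27 genes of thalamic glutamatergic neurons, 27 were tested over all classes, 7 were higher and 3 lower, with a median log2 difference of 0.14, and over all genes tested 1.04% were higher and 1.81% lower. DESeq2 called 6 and 1. Class makeup differed between the 2 sides: within the Tcf7l2-high class 3 were higher and 7 lower of 22 (median -0.22), in the other glutamate class 6 and 2 of 22, and in the GABA class 3 and 0 of 22. Prox1 was at 125, 113, 195 and 113 against 63.8, 64.9, 109 and 77.7 CPM (0.82 ± 0.08, adjusted p = 1.3e-05 in edgeR). The homeobox factors Shox2 (0.79 ± 0.12) and Lhx9 (0.58 ± 0.13), the nuclear receptor gene Rorb (0.37 ± 0.09) and Foxp2 (0.33 ± 0.08) were higher beside Col27a1 and Lhx2, although Foxp2 was called lower in the Tcf7l2-high class and higher in the GABA class. Prkcd (-1.15 ± 0.16), Tnnt1 (-1.35 ± 0.32) and Nr4a2 (-1.22 ± 0.30) were lower. For Rorb the difference was absent in COL 2 (231 against 251 CPM) and its call was lost without NS 1 (0.26), NS 2 (0.38) or COL 1 (0.34). The calls of 4 more genes were each lost in 3 of the 4 fits with a library left out. These were Lhx9 without COL 1 (0.59), COL 2 (0.60) or NS 1 (0.44), Tnnt1 without COL 1 (-1.63), COL 2 (-1.18) or NS 2 (-1.23), and Foxp2 and Nr4a2 without COL 2 (0.28 and -1.23), NS 1 (0.30 and -0.96) or NS 2 (0.29 and -1.15). Between glutamate nuclei alone the difference of Foxp2 was -0.0034.

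The other regional lists are short, and with the shares over all genes just given a count of 0 says little about them. The habenula list had 0 higher and 1 lower of 13 tested, the reticular, prethalamic and zona incerta list 0 and 3 of 16, the thalamic and midbrain interneuron list 1 (Otx2os1) and 0 of 10, the hypothalamic and subthalamic list 0 and 0 of 18, the cortical and hippocampal list 2 and 2 of 13, the striatal list 0 and 0 of 13 and the cholinergic and nicotinic list 0 and 0 of 10. The higher genes of the cortical list were Lhx2 and Prox1, which thalamic neurons also express, and its lower ones were Slc17a7 and Mef2c. In the hypothalamic, striatal and cholinergic lists an unadjusted p under 0.05 was reached by 4, 2 and 0 genes upward and by 2, 0 and 0 downward in edgeR, and DESeq2 called 0 in each. DESeq2 also called 0 of the habenula and interneuron lists and 1, lower, of the reticular list. The call of Otx2os1 was lost without NS 2 (0.54) or COL 1 (0.82). Of 31 injury and activity genes, 0 were higher and 2 lower in edgeR, where 1 and 4 had an unadjusted p under 0.05 and DESeq2 called 0. These were Atf3 and Csf1, the latter lost without COL 1 (-0.86) or COL 2 (-1.01).

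The lower genes over all classes held many glial genes. The 5 oligodendrocyte markers reported here (Mbp, Mobp, Mog, Mag and St18) and all 4 precursor markers were lower in the Npsr1-rich neurons, with list medians of -0.84 and -1.10. DESeq2 called 2 of each list. The sum of these 5 markers was at 314, 574, 301 and 640 CPM in the Npsr1-rich neurons against 506, 554, 1037 and 1392 CPM in the other neurons, so the gap was in the COL libraries and in NS 1. Microglial markers had 1 lower of 6, macrophage markers 2 of 4, T and NK cell markers 1 of 3, astrocyte markers 1 higher and 1 lower of 6, and vascular (5 tested) and ependymal (3 tested) markers 0 in either direction in edgeR. Of these marker genes, Cd3e was at 0 UMIs in the Npsr1-rich neurons. Among the named genes with the largest falls, Cldn14 (-2.22 ± 0.24), Mob3b (-1.61 ± 0.13), Runx1 (-1.55 ± 0.22), Piezo2 (-1.48 ± 0.19), Dock5 (-1.43 ± 0.18), Arhgap31 (-1.34 ± 0.15), Bcas1 (-1.33 ± 0.19) and Daam2 (-1.31 ± 0.16) were at higher levels in both COL sums of the other neurons than in both NS sums. Bcas1, a gene of myelinating oligodendrocytes, was at 14.8, 33.2, 19.1 and 63.9 against 41.4, 36.6, 94.7 and 163 CPM. With nuclei over 0.5% glial UMIs left out of both sides, 207 genes were higher and 242 lower. Of 64 called genes that were followed one by one, 61 kept their call with nuclei over 1% glial UMIs left out and 56 with those over 0.5% left out. The 8 that lost it at 0.5% were Cldn14 (-0.63), Daam2 (-0.41), Slc1a3 (-0.46), Csf1 (-0.41), Sept7 (-0.07), Foxp2 (0.26), Kcnc2 (0.30) and Grik3 (0.24), of which Csf1, Sept7 and Grik3 had lost it at 1%.

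The Nwd2-rich neurons were chosen in a similar way, on a single gene that is high in few neurons, and served as a second reference. Of 12820 genes, 553 (4.31%) were higher and 527 (4.11%) lower in the Npsr1-rich neurons (edgeR, adjusted p under 0.05). Without COL 2 the counts were 845 and 701, and without NS 1 246 and 236. Myo5c (log2 difference 3.76 ± 0.27), Trpm6 (3.75 ± 0.21) and Col27a1 (3.73 ± 0.20) had the largest rises. Gabrd, the delta subunit of extrasynaptic GABA-A receptors, was at 34.0, 26.8, 57.3 and 17.5 against 2.12, 8.15, 8.36 and 4.21 CPM (2.55 ± 0.26). Chrm3 was higher here too (1.61 ± 0.11).

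Among the 527 lower genes were some of dopamine, acetylcholine and habenula neurons. Slc6a3, the dopamine transporter, was at 0, 1.16, 0 and 2.56 CPM against 41.7, 117, 8.59 and 140 CPM in the Nwd2-rich neurons. Chat, which synthesizes acetylcholine, was at 1.11, 0.582, 2.90 and 1.09 against 32.5, 31.2, 73.9 and 21.0 CPM (log2 difference -4.74 ± 0.23, adjusted p = 3.5e-06 in edgeR). Pou4f1, a habenular transcription factor (-3.66 ± 0.30), Tac2 (-3.02 ± 0.37), and the nicotinic subunits Chrna3 (-3.74 ± 0.37) and Chrnb3 (-3.79 ± 0.40) were lower as well. Of 14 habenula genes, 9 were tested, 0 were higher and 7 were lower. Nwd2, the gene that chose this reference, is itself on the habenula list and was not tested. The count therefore describes the reference as much as the Npsr1-rich neurons. Against the other neurons, 0 genes of the list were higher and 1 lower of 13 tested.

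COL and NS were compared within the Npsr1-rich neurons over 13614 genes. No gene passed the test: 0 (0.0%) were higher and 0 (0.0%) lower in COL in edgeR, where 723 and 1365 had an unadjusted p under 0.05, and DESeq2 called 7 and 40. With the replicate number as a block, edgeR called 239 higher and 831 lower, but the labels give no meaning to that number. With 2 libraries a group the outcome can rest on a single library. A fit without any 1 of them leaves 1 library in a group and takes its spread from the other group alone. The range of counts from such fits is given only with the processing alternatives, and no conclusion is drawn from it. When the other neurons took the place of the Npsr1-rich ones, 670 of 24148 genes were higher and 149 lower in COL. Those sums held many more nuclei, and among them 80 and 32 nuclei in NS and 434 and 526 in COL had over 1% glial UMIs. This fit was not repeated without such nuclei, and the part of nuclear number or glial RNA in its counts was not tested. The NPSR1 signalling list had a median log2 difference of 0.23 over 35 genes and the neuropeptides -1.36 over 18, against -0.001 over all genes, with 0 called in either by edgeR or DESeq2. At an unadjusted p under 0.05, 3 signalling genes were higher and 11 neuropeptide genes lower. Markers of immune cells moved with the group in the same sums: the median log2 difference was 2.31 over 2 macrophage, 1.5 over 2 T and NK cell and 0.71 over 5 microglial markers, with 0 called by edgeR and 1 microglial gene called higher by DESeq2. Their part in the other differences was not tested. Cartpt, the precursor of the CART peptide, was at 24.4 and 24.4 CPM in NS and 0.830 and 13.1 CPM in COL. Pmch, Hcrt and Cartpt were lower in COL than in NS in the other neurons of the same libraries as well.

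Whether the COL change differed between Npsr1-rich and other neurons was tested as an interaction. Of 23013 genes, 19 (0.0826%) changed more upward and 139 (0.604%) more downward in the Npsr1-rich neurons (edgeR, adjusted p under 0.05). Dkk3, a secreted protein of the Dickkopf family, was at 11.8 and 12.2 CPM in NS and 19.5 and 23.7 CPM in COL in the Npsr1-rich neurons, and at 14.7, 10.1, 5.66 and 11.8 CPM in the other neurons (interaction 1.43 ± 0.30, adjusted p = 0.0014). Pde11a, a phosphodiesterase of cyclic nucleotides, was at 19.6, 15.7, 30.7 and 30.3 against 29.1, 21.5, 19.0 and 26.1 CPM (0.97 ± 0.24). The interactions of Dkk3 and Pde11a were 1.12 and 0.94 without NS 1 and 1.11 and 0.76 without COL 1. That of Pde11a was 0.98 without NS 2. Such a fit leaves 1 library in a group and takes its spread from the other group alone, so its calls for these genes are not given. Without nuclei over 1% glial UMIs the call of Pde11a was lost (0.89) and that of Dkk3 was not, and without Tcf7l2-high nuclei Pde11a was at 0.29. For both genes the COL sums of the Npsr1-rich neurons lay above their NS sums.

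The clearest downward interactions were of genes that were higher in the COL than in the NS sums of the other neurons and not in the Npsr1-rich neurons. Ninj2, an adhesion molecule, was at 14.1, 26.2, 11.6 and 21.2 CPM in the Npsr1-rich neurons and at 19.3, 19.6, 59.9 and 74.1 CPM in the other neurons (interaction -1.99 ± 0.25, adjusted p = 6.1e-09 in edgeR). Cdh19, a cadherin of glia, had an interaction of -2.12 ± 0.32, which was -0.96 without NS 2. The same 5 oligodendrocyte markers were among the 139 genes. Glial RNA moved with this count: with nuclei over 1% glial UMIs left out the counts were 5 and 31, with those over 0.5% left out 4 and 11, and DESeq2 called 0 and 20 on all nuclei. Without Tcf7l2-high nuclei on either side they were 29 and 255. Ninj2 lost its call without nuclei over 1% glial UMIs (-0.90) and Cdh19 without those over 0.5% (-0.99).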

How the data were processed

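Single nuclei of thalamic tissue were sequenced with the 10x Chromium 3′ v2 kit on a HiSeq4000. The authors deposited UMI counts as 1 gene by barcode table per library, whole numbers with no normalization, made with Cell Ranger 1.2.0 on mm10 per the submitters' processing notes. The 4 tables held 9681, 10438, 5943 and 6270 barcodes and 77557870, 68746459, 69513636 and 69511080 UMIs (NS 1, NS 2, COL 1, COL 2).

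Nuclei were gated as described above, and the counts of a population were summed per library, so the library was the replicate. Where populations of the same libraries were compared, p-values measure how evenly the difference held across these 4 libraries. For COL against NS they measure the spread between the libraries of a group, which can differ in dissection and makeup as well as in the pool. The sums were tested with edgeR 4.0.16 (quasi-likelihood test, TMM, filterByExpr, Benjamini-Hochberg adjustment over all genes tested) in R 4.3.3, with library as a block where populations of the same libraries were compared. DESeq2 1.42.0 was an alternative. Classes used Tcf7l2 (at least 10 UMIs) and 6 transmitter genes, which were left out of the class tests, as the genes of the gate were left out of all tests. Log2 differences are edgeR estimates and CPM are UMIs of a sum scaled to a total of 1000000. No doublet caller was run. A further marker gene used in the gate is not reported here. Clopper-Pearson 95% intervals and all counts of nuclei cover counting error only. The scripts were tested on simulated data.

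Genes were named by rule as the 15 largest rises and 10 largest falls among called genes with a mean of at least 20 CPM that moved the same way in every library (Gm and Rik models skipped), with list members beside them. Gm10701, the neighbours of Npsr1, the classes and the genes outside that rule were chosen after their values were seen. The members and all lists were chosen with earlier results of these data known. Alternatives were another test, scaling and filter, other UMI limits, thinning to 4000 UMIs, limits on glial UMIs and each library left out in turn. Promoters came from RefSeq on GRCm38.p6 and gene positions from the GRCm38 annotation. Python 3.11.15, numpy 2.4.6, scipy 1.17.1, pandas 2.3.3 and matplotlib 3.10.9 were used.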

Additional observations from a re-analysis of the deposited data

Results flagged for a closer look

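The COL against NS change differed between Npsr1-rich and other neurons by an interaction test (edgeR, adjusted p under 0.05) for 19 genes upward and 139 downward in the Npsr1-rich neurons. The 23 that the naming rule took are given here, so their split does not stand for that of all called genes, and the values are the log2 change in the Npsr1-rich neurons minus that in the other neurons. The change was more upward in the Npsr1-rich neurons for 13 genes: Dkk3 (1.43), Syt10 (1.21), Sfta3-ps (1.00), Zw10 (0.98), Pde11a (0.97), BC030499 (0.88), Vwa5b1 (0.85), Ebf3 (0.79), Cdh9 (0.73), Cadps2 (0.70), Kcnh1 (0.60), Phlpp2 (0.58) and Cpne4 (0.57). It was more downward for 10 genes: Cdh19 (-2.12), Aldh1a1 (-2.01), Ninj2 (-1.99), F13a1 (-1.90), Sema3d (-1.77), Zcchc24 (-1.69), Rad51b (-1.63), Nhsl1 (-1.59), Kank1 (-1.59) and Pstpip2 (-1.58).

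An interaction fit without 1 library leaves 1 library in a group, so for these genes only its differences are given. Some of the 23 differences held and others moved. For example, Zw10 ranged from 0.886 to 1.05 with 1 library left out, while Ebf3 was at 0.293 without NS 1 and 1.44 without NS 2. Nuclei with over 1% glial UMIs were found among the other neurons of both COL libraries (434 and 526) more than in NS (80 and 32). With such nuclei left out, 7 of the 23 calls were kept (Dkk3, Cadps2, Cdh19, F13a1, Sema3d, Nhsl1 and Kank1) and 16 were lost, and with those over 0.5% left out 4 were kept (Dkk3, Cadps2, F13a1 and Sema3d). Of these 4, Cadps2 was at 0.127 and Dkk3 at 1.11 without COL 1, and Sema3d was at -1.06 without NS 2. F13a1 is on the macrophage list, and the glial genes include no gene of that list, so these limits do not cover macrophage RNA. Tcf7l2-high nuclei made up 47.1% of the Npsr1-rich neurons in COL 1, more than in any other library, and without Tcf7l2-high nuclei 14 of the 23 calls were kept and 9 lost (Syt10, Zw10, Pde11a, Vwa5b1, Cdh9, Cadps2, Kcnh1, Cpne4 and Rad51b).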

How the results depend on the processing

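The COL minus NS difference in the share of Npsr1-rich neurons changed sign with a limit of 3 UMIs (-0.231 percentage points), after thinning with a limit of 2 UMIs (-0.477) and without COL 2, and ranged from -0.168 to 0.721 with 1 library left out. Against other neurons, 360 genes were higher with a limit of 10 UMIs, and the lower genes numbered 191 in DESeq2, 917 without a filter on low counts, 234 at 8000 UMIs or more, 242 without nuclei over 0.5% glial UMIs and 248 between glutamate nuclei. Without the library block 0 were called in either direction. With 1 library left out they ranged from 79 to 236 (higher) and from 102 to 512 (lower). Between glutamate nuclei alone, Foxp2 (-0.0034) and Six3 (0.346) changed sign. Against Nwd2-rich neurons the counts were 349 and 348 in DESeq2, 978 and 871 without a filter and 124 and 177 without the block, with 335 higher after thinning, and ranged from 246 to 845 and from 236 to 701 with 1 library left out.

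For COL against NS, DESeq2 called 7 and 40, the test without a filter 206 and 672, and the ranges with 1 library left out were 0 to 659 and 0 to 1104. For the interaction the counts were 0 and 20 in DESeq2, 5 and 31 without nuclei over 1% glial UMIs, 4 and 11 without those over 0.5%, 29 and 255 without Tcf7l2-high nuclei, and 6 to 32 and 55 to 155 with 1 library left out. Within classes, DESeq2 and the test without a filter gave 196 and 531 lower genes in Tcf7l2-high, 43 and 236 in other glutamate and 40 and 270 in GABA nuclei, and DESeq2 gave 36 higher genes in GABA nuclei. With 1 library left out the ranges were 143 to 186 and 215 to 302 in Tcf7l2-high, 71 to 124 and 48 to 146 in other glutamate, and 32 to 81 and 41 to 218 in GABA nuclei. The causes were not tested. Of 2537 values for 262 gene results, 2027 kept their direction and side of the threshold, 508 lost the call and 2 changed sign. These values include interaction fits with 1 library left out, which leave 1 library in a group. The ranges with 1 library left out for COL against NS and for the interaction come from fits of this kind too. Such fits take their spread from the other group alone, so no conclusion is drawn from those ranges. The limits on 0.5% glial UMIs, the classes and the tests without Tcf7l2-high nuclei were added after seeing the data.

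With the replicate number as a block, 239 genes were higher and 831 lower in COL. Without it 0 were called in either direction. The labels give no meaning to the number. The deviations of same-numbered libraries correlated at r = 0.185 over 9600 genes, and 2 pairs do not decide whether these libraries share more than a number.

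Each group had 2 pooled libraries, so the share and makeup could not reach a p under 0.333. COL 1 held 56 of the 146 Tcf7l2-high nuclei, and calls within classes rest on 14 to 77 nuclei a library. Free RNA and doublets were not removed. Dissection and injury cannot be told apart as sources of differences between libraries.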
